A study of Sus scrofa with 32 samples.

Results

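Liver RNA of pig fetuses whose mothers received the methyl-enriched gestation diet is described here, at 35 and at 63 days post coitum (dpc). By the diet and stage labels these are 11 of the 32 arrays of the study, 5 at 35 dpc and 6 at 63 dpc. All fetuses were of the Pietrain breed, and each array (a porcine expression array, read with biotin-labelled cRNA) held the liver RNA of 1 sample. The remaining arrays were 11 of the control diet at the same ages (5 and 6) and 10 at 91 dpc, 5 for each diet.

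No genetic alteration is stated for any group, and what the diet contained is not stated in the sources used here. The design text gives 5 to 6 gilts, young sows in their first pregnancy, as mothers at a stage, and no label ties an array to a dam. Whether fetuses of a group were littermates is therefore unknown. The p-values and standard errors below rest on the spread between samples within groups, pooled over the 6 groups of all 32 arrays. The comparison asks how fetal liver RNA changed over 28 days of gestation under this diet. A second comparison asks whether that change differed from the change under the control diet.

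The liver of an early fetus is both a gland in formation and the main site of blood formation, and red cell precursors make up much of it. As gestation proceeds, hepatoblasts mature into hepatocytes, which secrete albumin, clotting factors and complement, take up and export bile acids, and handle lipids, sugars and amino acids. Methyl donors of the diet feed the methionine cycle. In that cycle homocysteine receives a methyl group from betaine or from folate, methionine becomes S-adenosylmethionine, and this compound is used to methylate DNA, proteins, phospholipids and glycine.

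The deposited values are log2 numbers, 1 per probe set and array, and a unit step is a doubling of signal. Array medians ran from 3.83 to 3.91 at 35 dpc and from 3.97 to 4.095 at 63 dpc. Of 23999 probe sets, 15327 passed the filter on low values, a value above the array's 40th percentile in at least 5 of the 32 arrays, and 7625 of these carry 1 gene symbol, for 5594 genes. A gene is reported by its brightest probe set, and levels of different genes are not set against each other. Across the probe sets tested, arrays of 1 age correlated at 0.97 to 0.987 (35 dpc) and 0.972 to 0.992 (63 dpc), and arrays of different age at 0.895 to 0.964. The first principal component, 63.6% of the variance of these 11 arrays, ran from -82.83 to -45.3 at 35 dpc and from 28.94 to 62.44 at 63 dpc. The second, 11.2%, followed the difference between the spike-in controls bioC and bioB, which lay at 1.33 to 1.82 in 6 high-gap arrays (3 of each age) and at -0.05 to 0.23 in 5 low-gap arrays (2 at 35 dpc and 3 at 63 dpc). The 3' minus 5' signal difference of control genes, in log2 units, was 1.76 ± 0.13 (SD) in the high-gap and 1.35 ± 0.15 in the low-gap arrays. EIF1AY, a gene named for the Y chromosome, lay at 4.69 to 7.25 at 35 dpc and at 7.61 to 8.17 at 63 dpc. With EIF1AY as a covariate 6679 probe sets were called for age, beside 7661 without it.

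The labelled tissue was checked against markers. All 7 hepatocyte markers were measured, none lay near background, and their summed log2 level was 103 to 105 at 35 dpc and 109 at 63 dpc. Of the markers of other cells that liver tissue can hold, the 5 measured erythroid genes summed to 50.6 to 53.2 at 35 dpc and 47.7 to 50.7 at 63 dpc, and the 3 neutrophil genes to 22.2 to 25.9 and 26.7 to 29.2. The 4 macrophage genes summed to 23.7 to 26.9 and 27.9 to 29.5, and 1 of the 4 was called higher. Sums were 35.3 to 37.5 and 33.8 to 35.6 for 5 stellate and fibroblast genes. They were 18.1 to 19.0 and 19.3 to 19.7 for 3 endothelial genes. For 4 hepatoblast and bile duct genes they were 19.5 to 22.2 and 21.9 to 24.1. The 4 megakaryocyte and progenitor genes gave 19.0 to 20.0 and 18.9 to 19.9, and 2 lymphocyte genes 6.2 to 8.1 and 7.6 to 8.9. SOX9 (bile duct), CD3E (T cell) and KDR (endothelium) were near background, at or below the array's 40th percentile, on all 11 arrays. In whole tissue, fewer cells of a type and less RNA per cell cannot be told apart, and this holds for every gene below.

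From 35 to 63 dpc under the methyl diet, 13 of 14 coagulation genes, 8 of 10 neutrophil and granule genes and 7 of 11 cholesterol synthesis genes rose. Over the same time 15 of 20 glycolysis and hypoxia genes, 11 of 16 erythroid genes, 40 of 59 respiratory chain genes and 18 of 33 cell cycle genes fell. limma with Benjamini-Hochberg adjustment called 7661 of 15327 probe sets (50.0%) at an adjusted p under 0.05, 4281 higher (27.9%) and 3380 lower (22.1%) at 63 dpc. At least 2-fold, 2395 rose and 808 fell, and at least 8-fold, 19 rose and 12 fell. Counted by gene, 1517 rose (27.1%) and 1728 fell (30.9%), and the values of the 2 ages did not overlap in 2227 genes (39.8%). Probe sets without a single gene symbol contributed 2336 of the rises and 1271 of the falls. The share of calls that are rises was 55.9% as deposited and 45.3% after quantile normalization, which moved the median change of all genes from -0.07 to -0.18, a shift of -0.11. List medians below are therefore read against the median of all genes, -0.07, and list counts against the shares of all genes, 27.1% higher and 30.9% lower.

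The largest rise was in KLKB1, plasma prekallikrein, the precursor of a protease of the contact pathway of clotting. Its values were 4.16, 6.14, 7.01, 4.91 and 4.204 at 35 dpc and from 8.93 to 9.28 (median 9.27) at 63 dpc. The 63 dpc arrays lay within a narrow band, in which replicates 2, 3 and 5 held the identical deposited value 9.2667. The 35 dpc arrays were spread over nearly 3 units, and the ages did not overlap. The change was 3.92 ± 0.34 (SE, adjusted p = 3.42e-09), a 15.2-fold rise. Albumin, the main plasma protein, read 10.67, 11.82, 11.63, 11.37 and 11.23 at 35 dpc and from 14.58 to 15.04 (median 14.72) at 63 dpc. Every 63 dpc array was above every 35 dpc array, and ALB rose by 3.41 ± 0.27 (SE, adjusted p = 6.05e-10), 10.6-fold.

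IGFBP2, which binds insulin-like growth factors in fetal plasma, behaved less evenly at the younger age, with 6.84, 9.997, 10.18, 6.18 and 5.53 at 35 dpc and from 10.57 to 11.58 (median 10.998) at 63 dpc. Replicates 2 and 3 at 35 dpc already read near the 63 dpc range while the other 3 were far below it, and the ages still did not overlap. IGFBP2 rose by 3.27 ± 0.52 (SE, adjusted p = 1.11e-05), from 35 dpc arrays that differed widely (SD 2.19). This SE rests on a spread pooled over the 6 groups and does not carry the full spread of the 35 dpc arrays. PDZK1, a scaffold that holds membrane transporters and the HDL receptor, read 5.798, 7.85, 7.38, 6.39 and 4.603 at 35 dpc and from 9.17 to 9.83 (median 9.73) at 63 dpc. It rose by 3.22 ± 0.37 (SE, adjusted p = 1.4e-07), while a second probe set of PDZK1 changed by 0.04. IFIT1, an interferon-induced RNA-binding protein, read 4.14, 5.43, 5.39, 3.17 and 2.79 at 35 dpc and from 6.85 to 8.04 (median 7.69) at 63 dpc. It rose by 3.41 ± 0.42 (SE, adjusted p = 4.3e-07), with no overlap.

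ATP8B1, a phospholipid flippase of the bile canaliculus, read 3.22, 5.16, 5.28, 5.22 and 3.33 at 35 dpc and from 6.78 to 7.83 (median 7.23) at 63 dpc. Replicates 1 and 5 were the low arrays at 35 dpc, and the rise was 2.81 ± 0.37 (SE, adjusted p = 9.03e-07). ANXA1, a phospholipid-binding protein that dampens inflammation, read 6.09, 7.49, 6.904, 7.33 and 5.37 at 35 dpc and from 9.26 to 10.002 (median 9.46) at 63 dpc. It rose by 2.91 ± 0.32 (SE, adjusted p = 9.14e-08). LRRN3, a leucine-rich repeat membrane protein, rose by 3.502 ± 0.43 (SE, adjusted p = 3.82e-07) and PALMD, palmdelphin, by 3.48 ± 0.39 (SE, adjusted p = 7.65e-08). VSNL1, a neuronal calcium sensor protein, rose by 2.87 ± 0.34 (SE, adjusted p = 1.8e-07). The deadenylase CNOT6L, the lectin-like CLEC2D, ZNF277 and OCIAD2 rose by 2.83, 2.81, 2.78 and 2.69. EGR1, an immediate early transcription factor, was the member of these 15 whose ages overlapped, at 8.78, 5.58, 7.46, 5.92 and 6.201 at 35 dpc and from 8.59 to 11.06 (median 9.74) at 63 dpc. Its change was 2.97 ± 0.54 (SE, adjusted p = 5.04e-05), and replicate 1 at 35 dpc lay within the 63 dpc range. The other 2 probe sets of EGR1 changed by 0.32 and 2.80.

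**Figure D1:**
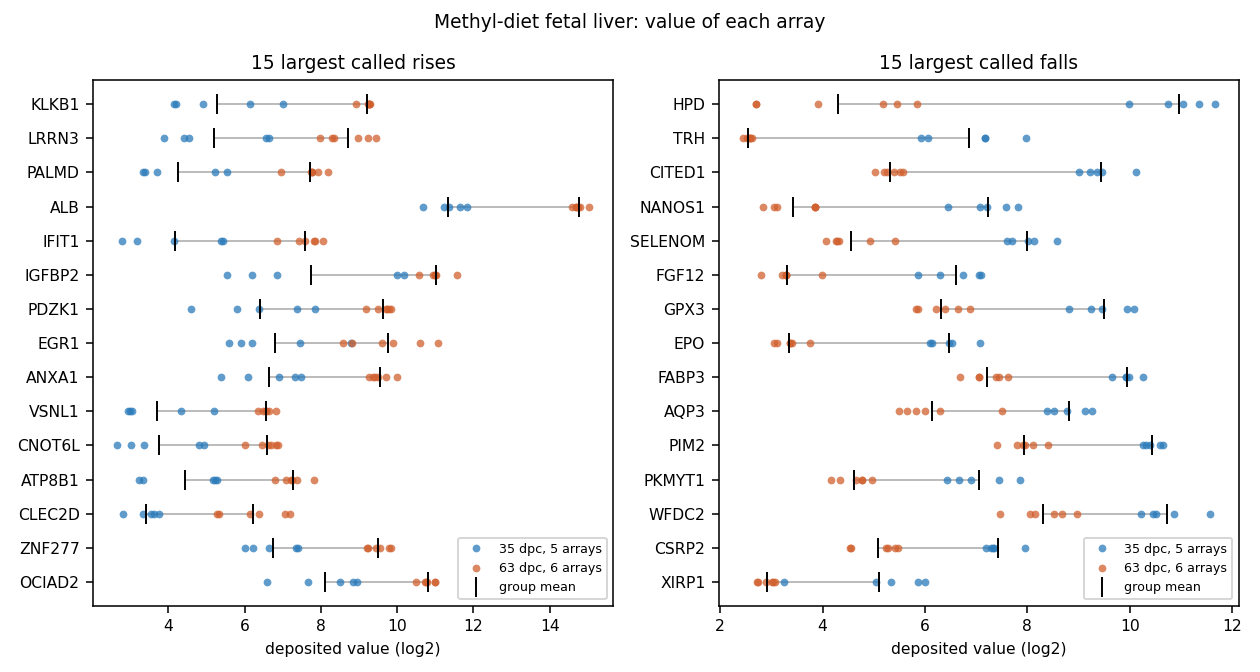
Deposited log2 value (x axis) of the 15 genes with the largest called rise (left) and the 15 with the largest called fall (right) in each methyl-diet array; points are arrays, black marks are group means, and the rows are ordered by the size of the change. In most rises the 35 dpc points are spread more widely than the 63 dpc points. CLEC2D goes the other way (SD 0.37 at 35 dpc and 0.82 at 63 dpc), and EGR1 is also wide at 63 dpc (SD 0.97). Only EGR1 among the 30 genes, picked for their large change, has overlapping ages. Of all genes, 39.8% had no overlap.

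The 35 dpc arrays were ordered alike over the largest rises. Replicate 2 or replicate 3 held the highest 35 dpc value in 7 genes each of the 15, and replicate 5 or replicate 1 the lowest in 7 and 6. The mean of the 15 genes was 5.25, 6.65, 6.83, 5.64 and 4.96 in the 5 arrays at 35 dpc and 8.77 to 9.22 at 63 dpc. Over all 4281 probe sets called higher, replicate 1 was the lowest 35 dpc array in 46.8% and replicate 5 in 24.4%. Over the 3380 called lower, replicate 1 was the highest 35 dpc array in 54.3%. Replicates 1, 3 and 5 are high-gap arrays and replicates 2 and 4 low-gap arrays. Of the 4281, the low-gap replicates 2 and 4 were lowest in 512 and 366. The high-gap replicate 3 was lowest in 355 of them and highest in 35.9%. The part of the spike-in gap in this order was not tested. At 63 dpc, replicate 3 was the lowest array in 39.7% of the probe sets called higher. Without replicate 1 at 35 dpc, the calls numbered 6701.

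The largest fall was in HPD, 4-hydroxyphenylpyruvate dioxygenase, an enzyme of tyrosine breakdown. It read 11.66, 10.75, 9.98, 11.36 and 11.03 at 35 dpc and from 2.703 to 5.85 (median 4.54) at 63 dpc, with 2 of the 6 arrays at 63 dpc near background. All arrays at 35 dpc were above 9 and all at 63 dpc below 6, and the change was -6.66 ± 0.79 (SE, adjusted p = 2.08e-07). TRH, the precursor of thyrotropin-releasing hormone, read 7.96, 5.93, 6.06, 7.18 and 7.17 at 35 dpc and from 2.44 to 2.62 (median 2.57) at 63 dpc. All 6 arrays at 63 dpc were near background, so TRH was at least 17.2-fold lower (adjusted p = 7.54e-09). CITED1, a transcriptional coactivator, read 10.12, 9.23, 9.46, 9.003 and 9.36 at 35 dpc and from 5.03 to 5.57 (median 5.32) at 63 dpc. All 63 dpc arrays were below all 35 dpc arrays, and CITED1 fell by 4.11 ± 0.36 (SE, adjusted p = 3.74e-09).

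EPO, erythropoietin, the hormone that drives red cell formation and is made by the liver before the kidney takes over, read 7.08, 6.53, 6.47, 6.13 and 6.105 at 35 dpc and from 3.05 to 3.76 (median 3.37) at 63 dpc. The ages did not overlap, and EPO fell by 3.12 ± 0.39 (SE, adjusted p = 5.96e-07). SELENOM and GPX3, a selenoprotein of the endoplasmic reticulum and the secreted glutathione peroxidase, changed by -3.45 ± 0.34 (SE, adjusted p = 1.65e-08) and -3.198 ± 0.44 (SE, adjusted p = 1.73e-06). NANOS1, an RNA-binding repressor of translation, read 7.81, 6.44, 7.57, 7.08 and 7.21 at 35 dpc and from 2.85 to 3.84 (median 3.47) at 63 dpc. It fell by 3.80 ± 0.31 (SE, adjusted p = 1.06e-09). Replicates 2, 3 and 6 at 63 dpc held the identical value 3.8444, as did control-diet replicates 3, 4, 5 and 6 at 63 dpc. FGF12, an intracellular relative of fibroblast growth factors, fell by 3.31 ± 0.301 (SE, adjusted p = 5.58e-09), and replicates 1, 2 and 3 at 63 dpc held the identical value 3.2871.

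FABP3, a fatty acid-binding protein, and AQP3, a water and glycerol channel, changed by -2.75 and -2.68. The kinase PIM2, which favours survival of blood cells, and PKMYT1, the kinase that holds CDK1 inactive, changed by -2.51 and -2.45. The secreted WFDC2 and the LIM-domain protein CSRP2 changed by -2.41 and -2.34. XIRP1, an actin-binding protein of striated muscle, read 6.001, 3.24, 5.04, 5.33 and 5.86 at 35 dpc and from 2.72 to 3.08 (median 2.96) at 63 dpc. Replicate 2 at 35 dpc lay close to the 63 dpc arrays, and the change was -2.18 ± 0.29 (SE, adjusted p = 1.41e-06). The ages did not overlap in any of the 15 falling genes, which were picked for their large change, beside 39.8% of all genes.

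The RNA of clotting genes rose as a group. Of 14 tested genes of coagulation and fibrinolysis, 13 rose and none fell, with a median change of 1.104 against -0.07 for all genes, and the mean level of the list was 11.2 to 12.01 at 35 dpc and 12.7 to 12.96 at 63 dpc. F5, the cofactor of the enzyme that makes thrombin, read 7.703, 8.65, 8.92, 7.69 and 7.84 at 35 dpc and from 9.83 to 10.52 (median 10.31) at 63 dpc. The ages were apart by almost a unit, and F5 rose by 2.11 ± 0.22 (SE, adjusted p = 2.91e-08). PROS1, the protein S cofactor that limits clotting, rose by 1.68 ± 0.20 (SE, adjusted p = 2.36e-07), and VTN, the plasma adhesion protein vitronectin, by 1.05 ± 0.12 (SE, adjusted p = 2.17e-07). The fibrinogen chains FGB and FGG rose by 1.16 and 1.16, F9 by 1.26 and kininogen (KNG1) by 1.83.

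Carriers in plasma moved both ways, with 7 of 15 genes higher and 3 lower (median 0.09). SERPINA7, the thyroxine-binding globulin, rose by 1.34 ± 0.18 (SE, adjusted p = 1.05e-06) and APOH by 0.97 ± 0.16 (SE, adjusted p = 1.7e-05). SERPINA6, which carries cortisol, read 13.47, 13.34, 13.13, 13.48 and 12.89 at 35 dpc and from 11.68 to 12.404 (median 12.16) at 63 dpc. Its ages did not overlap, and it fell by 1.14 ± 0.18 (SE, adjusted p = 9.13e-06). AFP, the fetal counterpart of albumin, was near the top of the scale at both ages, 15.54, 15.82, 15.67, 15.89 and 15.54 at 35 dpc and from 15.79 to 15.99 (median 15.87) at 63 dpc. The ages overlapped, and AFP rose by 0.18 ± 0.07 (SE, adjusted p = 0.0319). That call held under 12 of 24 alternatives and was lost under quantile normalization.

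In complement and acute phase, 13 of 24 genes rose and 4 fell (median 0.61). The protease C1S of the first complement component read 8.21, 9.22, 9.15, 8.63 and 8.52 at 35 dpc and from 10.11 to 11.02 (median 10.91) at 63 dpc. C1S rose by 1.94 ± 0.199 (SE, adjusted p = 2.42e-08), and CFB, a protease of the alternative pathway, rose by 1.43 ± 0.13 (SE, adjusted p = 4.29e-09). ITIH2 and ITIH3, which bind hyaluronan, rose by 1.04 ± 0.11 (SE, adjusted p = 2.42e-08) and 2.37 ± 0.22 (SE, adjusted p = 5.87e-09).

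**Figure D2:**
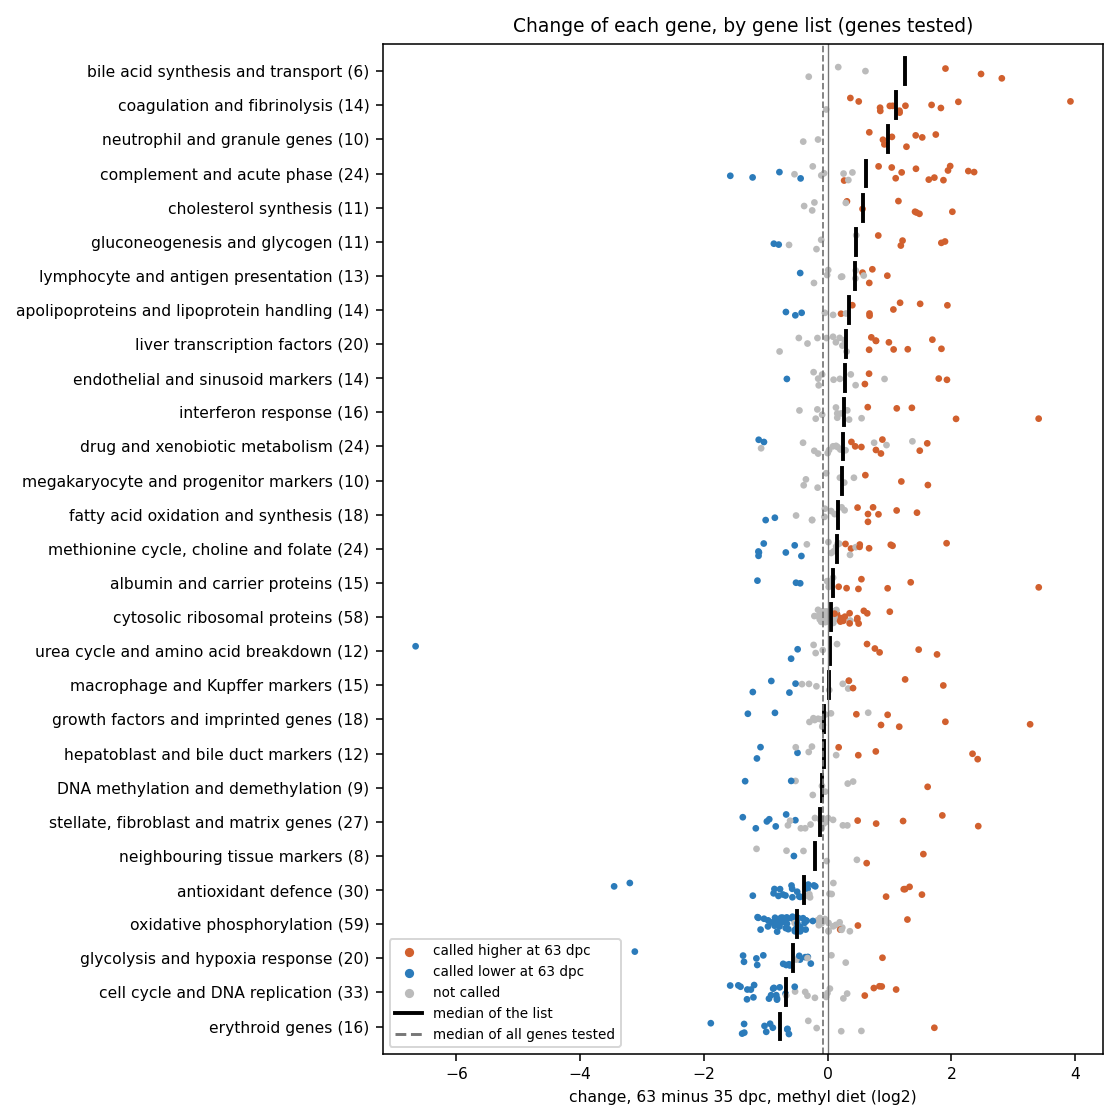
Change from 35 to 63 dpc under the methyl diet (x axis, log2) of each tested gene in 29 gene lists, with the number of genes tested in brackets; orange points were called higher, blue lower and grey not called, the black bar is the median of the list and the dashed line the median of all genes. Bile acid, coagulation and neutrophil genes have the highest medians (1.26, 1.104 and 0.98) and erythroid, cell cycle and glycolysis genes the lowest (-0.77, -0.68 and -0.56).

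Of 6 tested bile acid genes 3 rose and none fell (median 1.26), and these 3 are membrane proteins. ABCB11, the bile salt export pump of the canaliculus, read 4.16, 4.96, 4.82, 4.299 and 4.41 at 35 dpc and from 6.43 to 7.36 (median 7.04) at 63 dpc. It rose by 2.48 ± 0.28 (SE, adjusted p = 1.16e-07), with the ages more than a unit apart. SLC10A1, the uptake carrier on the blood side, rose by 1.903 ± 0.31 (SE, adjusted p = 1.37e-05). CYP27A1, an enzyme of bile acid synthesis, changed by -0.31 ± 0.14 (SE, adjusted p = 0.0694) and was not called. Of 11 cholesterol synthesis genes 7 rose and none fell (median 0.56). SC5D and CYP51, which act late in the pathway, rose by 2.01 ± 0.27 (SE, adjusted p = 1.05e-06) and 1.48 ± 0.19 (SE, adjusted p = 9.51e-07). SQLE, a rate-limiting oxygenase, rose by 1.41 ± 0.198 (SE, adjusted p = 2.17e-06) and the sterol oxidase MSMO1 by 1.44 ± 0.24 (SE, adjusted p = 1.74e-05).

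Of 14 apolipoprotein and lipoprotein genes 8 rose and 3 fell (median 0.35). APOB, the structural protein of low-density lipoprotein, read 11.62, 11.85, 12.03, 12.22 and 11.801 at 35 dpc and from 13.29 to 14.24 (median 13.88) at 63 dpc. It rose by 1.93 ± 0.29 (SE, adjusted p = 5.15e-06), and MTTP, which loads lipid onto APOB, rose by 1.17 ± 0.21 (SE, adjusted p = 3.79e-05). APOC3 rose by 0.68 ± 0.09 (SE, adjusted p = 1.75e-06), while APOC2, the activator of lipoprotein lipase, fell by 0.52 ± 0.08 (SE, adjusted p = 1.44e-05). Of 18 fatty acid genes 7 rose and 2 fell (median 0.17). ACSL1, which activates fatty acids, rose by 1.44 ± 0.20 (SE, adjusted p = 1.93e-06), and the desaturase SCD by 0.82 ± 0.15 (SE, adjusted p = 8.09e-05). The acyl-CoA dehydrogenases ACADVL and ACADS changed by -1.002 ± 0.14 (SE, adjusted p = 1.94e-06) and -0.85 ± 0.15 (SE, adjusted p = 3.69e-05).

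Of 11 genes of gluconeogenesis and glycogen 5 rose and 2 fell (median 0.46). UGP2, which makes the sugar donor of glycogen, rose by 1.84 ± 0.22 (SE, adjusted p = 3.63e-07), FBP1 of gluconeogenesis by 1.21 ± 0.19 (SE, adjusted p = 1.12e-05), and PYGL, the liver glycogen phosphorylase, by 0.82 ± 0.12 (SE, adjusted p = 2.78e-06). PPARGC1A, a coactivator of gluconeogenesis, read 2.63, 3.11, 2.43, 2.69 and 2.52 at 35 dpc and from 4.07 to 4.94 (median 4.59) at 63 dpc, and 4 of the 5 arrays at 35 dpc were near background. It was called higher (adjusted p = 7.57e-07), but with 1 array at 35 dpc above background its fitted change of 1.896 is not a measured fold. Without replicate 5 at 35 dpc the median of this list was 0.10 and without replicate 2 it was 0.72.

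In glycolysis and the hypoxia response, 15 of 20 genes fell and 1 rose (median -0.56). PFKL and PFKM, phosphofructokinase of liver and muscle type, changed by -1.37 ± 0.22 (SE, adjusted p = 1.54e-05) and -1.35 ± 0.22 (SE, adjusted p = 1.64e-05), and TPI1 by -1.14 ± 0.19 (SE, adjusted p = 1.62e-05). LDHA and GAPDH changed by -0.63 and -0.36. VEGFA, the vascular growth factor, was the 1 gene that rose, by 0.89 ± 0.204 (SE, adjusted p = 0.00069). EPO, described above, is a member of the list.

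Of 12 genes of the urea cycle and amino acid breakdown 5 rose and 3 fell (median 0.04). TAT, the first enzyme of tyrosine breakdown, read 10.26, 10.44, 10.84, 10.55 and 10.62 at 35 dpc and from 11.59 to 12.56 (median 11.99) at 63 dpc. It rose by 1.47 ± 0.22 (SE, adjusted p = 3.95e-06), while HPD, the next enzyme of that pathway, had the largest fall of all genes. KYNU, of tryptophan breakdown, rose by 1.77 ± 0.25 (SE, adjusted p = 3.22e-06), and ARG1, the last enzyme of the urea cycle, by 0.64 ± 0.11 (SE, adjusted p = 3.14e-05). Of 24 drug metabolism genes 8 rose and 2 fell (median 0.25). ALDH1A1, which makes retinoic acid, rose by 1.61 ± 0.19 (SE, adjusted p = 2.07e-07). EPHX2, ADH5 and ALDH2, which process epoxides and aldehydes, rose by 0.88, 0.86 and 0.54.

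Of 20 liver transcription factors 9 rose and none fell (median 0.29). NR5A2, a nuclear receptor of bile acid and cholesterol genes, read 5.49, 6.69, 6.87, 6.33 and 6.29 at 35 dpc and from 7.77 to 8.26 (median 8.05) at 63 dpc. The ages did not overlap and NR5A2 rose by 1.69 ± 0.22 (SE, adjusted p = 1.05e-06). NFIB, FOXA2 and NR2F2 rose by 1.84 ± 0.35 (SE, adjusted p = 0.000105), 0.99 ± 0.18 (SE, adjusted p = 5.27e-05) and 1.07 ± 0.19 (SE, adjusted p = 3.59e-05). After quantile normalization 7 of the 20 were called higher and 2 lower.

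Erythroid genes fell. Of 16 tested, 11 fell and 1 rose (median -0.77), and the mean level of the list was 10.9 to 11.3 at 35 dpc and 10.4 to 10.8 at 63 dpc. HBE1, the embryonic globin, read 10.29, 9.65, 9.34, 9.05 and 8.81 at 35 dpc and from 6.74 to 8.38 (median 7.42) at 63 dpc. All 35 dpc arrays were above all 63 dpc arrays, and HBE1 fell by 1.89 ± 0.299 (SE, adjusted p = 1.07e-05). BCL11A, a repressor of globin genes, changed by -1.38 ± 0.23 (SE, adjusted p = 1.65e-05), the red cell membrane protein DMTN by -1.35 ± 0.203 (SE, adjusted p = 5.62e-06), and PPOX, of heme synthesis, by -0.93 ± 0.17 (SE, adjusted p = 4.67e-05). KLF1, the master factor of red cell genes, changed by -1.35 and ALAS2, the first enzyme of heme synthesis in red cells, by -0.65. The call of ALAS2 held under 21 of 24 alternatives and was lost within each spike-in gap class and with EIF1AY as a covariate. HBB, an adult-type globin, was the 1 gene that rose, at 5.37, 6.297, 6.07, 6.49 and 6.33 at 35 dpc and from 6.92 to 8.37 (median 7.99) at 63 dpc. It rose by 1.72 ± 0.35 (SE, adjusted p = 0.000166) with no overlap. In low-gap arrays alone 3 erythroid genes were called lower and none higher (median -0.80).

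Neutrophil and granule genes rose, 8 of 10 with none lower (median 0.98), and their mean level was 7.54 to 8.62 at 35 dpc and 8.84 to 9.53 at 63 dpc. NPG4, a protegrin, and PR39, both antimicrobial peptides of pig neutrophils, rose by 1.53 ± 0.25 (SE, adjusted p = 1.52e-05) and 1.75 ± 0.403 (SE, adjusted p = 0.000707). LTF, lactoferrin, read 8.45, 9.102, 9.30, 8.48 and 7.53 at 35 dpc and from 9.62 to 10.34 (median 10.03) at 63 dpc. It rose by 1.42 ± 0.25 (SE, adjusted p = 3.26e-05). ELANE, neutrophil elastase, rose by 0.92 ± 0.23 (SE, adjusted p = 0.00174). Replicate 5 at 35 dpc was the lowest array for NPG4, PR39, LTF and ELANE.

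Of 15 macrophage genes 4 were higher and 4 lower (median 0.03), shares near the 27.1% and 30.9% of all genes. MRC1, the mannose receptor, read 6.42, 7.11, 7.197, 6.51 and 5.62 at 35 dpc and from 8.17 to 8.83 (median 8.37) at 63 dpc. It rose by 1.87 ± 0.25 (SE, adjusted p = 1.02e-06), and the proteases CTSS and LGMN rose by 1.25 ± 0.18 (SE, adjusted p = 2.49e-06) and 0.41 ± 0.08 (SE, adjusted p = 0.000182). HMOX1, heme oxygenase, which macrophages and hepatocytes both express, fell by 1.21 ± 0.16 (SE, adjusted p = 7.18e-07). Of 16 interferon response genes 5 rose and none fell (median 0.27), a share of rises near the 27.1% of all genes. Besides IFIT1, EIF2AK2 rose by 2.07 ± 0.56 (SE, adjusted p = 0.00282), IFI44L by 1.36 ± 0.26 (SE, adjusted p = 0.000113) and STAT2 by 0.65 ± 0.17 (SE, adjusted p = 0.00216).

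Of 13 lymphocyte and antigen presentation genes 4 rose, a share near the 27.1% of all genes, and 1 fell (median 0.45). The 4 encode class II chains: SLA-DRA rose by 0.96 ± 0.39 (SE, adjusted p = 0.0379), SLA-DRB1 by 0.72 ± 0.25 (SE, adjusted p = 0.0192), SLA-DQA1 by 0.67 ± 0.26 (SE, adjusted p = 0.033) and SLA-DQB1 by 0.56 ± 0.23 (SE, adjusted p = 0.044). After quantile normalization none of the 13 was called higher and 2 were called lower, and each of the 4 class II calls was also lost when 1 or another single array was left out. Of 10 megakaryocyte and progenitor genes 3 rose, again near the share of all genes, and none fell (median 0.23). MEIS1, F2R (the thrombin receptor) and PPBP (a platelet chemokine) rose by 1.19, 1.62 and 0.61. The call of PPBP held under 17 of 24 alternatives, and that of F2R was lost in low-gap arrays alone. KIT changed by 0.42 ± 0.21 (SE, adjusted p = 0.0923).

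Of 14 endothelial genes 4 were called higher, a share near the 27.1% of all genes, and 1 lower (median 0.29). TEK, the angiopoietin receptor, rose by 1.93 ± 0.26 (SE, adjusted p = 1.38e-06), PECAM1 by 0.601 ± 0.13 (SE, adjusted p = 0.000395) and ERG by 0.67 ± 0.21 (SE, adjusted p = 0.00874). FCN2, a ficolin, read 7.76, 8.37, 7.93, 6.04 and 4.59 at 35 dpc and from 8.07 to 9.198 (median 8.74) at 63 dpc. The ages overlapped, and it rose by 1.79 ± 0.55 (SE, adjusted p = 0.00793), a call that was lost without replicate 5 at 35 dpc. Of 27 stellate, fibroblast and matrix genes 5 rose and 7 fell (median -0.12). POSTN, periostin, and LAMB1, a laminin chain, rose by 2.43 ± 0.35 (SE, adjusted p = 3.16e-06) and 1.85 ± 0.26 (SE, adjusted p = 1.94e-06), and FN1, fibronectin, by 0.78 ± 0.14 (SE, adjusted p = 3.74e-05). FBLN1, fibulin, changed by -1.16 ± 0.24 (SE, adjusted p = 0.000269) and TIMP1, a protease inhibitor, by -1.37.

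Of 12 hepatoblast and bile duct genes 5 rose and 3 fell (median -0.06). ANXA4 and EPCAM, which mark biliary and progenitor cells, rose by 2.42 ± 0.25 (SE, adjusted p = 2.15e-08) and 2.34 ± 0.25 (SE, adjusted p = 5.99e-08). GPC3, a fetal liver proteoglycan, rose by 0.49 ± 0.13 (SE, adjusted p = 0.0031), and TACC3, a spindle protein, fell by 1.14 ± 0.25 (SE, adjusted p = 0.000475). Of 8 markers of neighbouring tissues 2 rose and 1 fell (median -0.20). The pancreatic amylase AMY2 rose by 1.55 ± 0.29 (SE, adjusted p = 7.36e-05), while a second probe set of AMY2 changed by 0.01. Villin (VIL1) rose by 0.63 ± 0.23 (SE, adjusted p = 0.0247), and the muscle kinase CKM changed by -0.55 ± 0.23 (SE, adjusted p = 0.0439). The calls of VIL1 and CKM were also lost when any of several single arrays was left out. NR5A1, a marker of adrenal and gonad, changed by -0.39 ± 0.17 (SE, adjusted p = 0.0561).

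Replication genes fell, with 18 of 33 cell cycle genes lower and 5 higher (median -0.68). RRM2, which makes deoxynucleotides, read 12.77, 13.03, 12.81, 13.22 and 12.56 at 35 dpc and from 11.103 to 11.55 (median 11.29) at 63 dpc. It fell by 1.58 ± 0.25 (SE, adjusted p = 1.04e-05), with the ages about a unit apart. The mitotic kinase PLK1 changed by -1.44 ± 0.19 (SE, adjusted p = 7.49e-07), the helicase subunits MCM3 and MCM5 by -1.304 and -1.41, and FEN1, which trims DNA flaps, by -1.19 ± 0.18 (SE, adjusted p = 4.62e-06). TOP2A, a topoisomerase of dividing cells, rose by 1.11 ± 0.34 (SE, adjusted p = 0.00817).

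Respiratory chain genes fell as well: 40 of 59 oxidative phosphorylation genes were lower and 3 higher (median -0.50). COX7A2 of complex IV read 12.77, 12.80, 12.78, 12.71 and 12.56 at 35 dpc and from 11.77 to 12.02 (median 11.95) at 63 dpc. No arrays overlapped, and the change was -0.81 ± 0.09 (SE, adjusted p = 1.65e-07). The ATP synthase subunit ATP5D changed by -1.12 ± 0.17 (SE, adjusted p = 5.62e-06), and NDUFB2 and NDUFA10 of complex I by -0.97 ± 0.14 (SE, adjusted p = 5.14e-06) and -0.78 ± 0.12 (SE, adjusted p = 5.15e-06). NDUFA5 and NDUFS1, also of complex I, rose by 1.29 and 0.49. The call of NDUFS1 was lost within each spike-in gap class, and that of NDUFA5 in low-gap arrays alone. Under the fit with EIF1AY as a covariate 38 of the 59 were lower and 2 higher.

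Of 30 antioxidant genes 19 fell and 5 rose (median -0.39). GPX1, the cytosolic glutathione peroxidase, changed by -0.87. SELENOP, the selenium carrier secreted by the liver, read 12.32, 13.09, 13.50, 13.16 and 12.63 at 35 dpc and from 14.22 to 14.64 (median 14.48) at 63 dpc. It rose by 1.52 ± 0.204 (SE, adjusted p = 1.19e-06), whereas SELENOM and GPX3, both selenoproteins, were among the largest falls. TXNIP, which inhibits thioredoxin, rose by 1.32 ± 0.18 (SE, adjusted p = 1.68e-06), and the mitochondrial superoxide dismutase SOD2 by 1.23. Ribosomal protein genes moved little: 18 of 58 rose and none fell (median 0.06), but after quantile normalization 12 rose and 9 fell. RPL5 rose by 1.004 ± 0.105 (SE, adjusted p = 3.12e-08), RPS24 by 0.58 ± 0.09 (SE, adjusted p = 9.69e-06), RPL17 by 0.48 and RPL9 by 0.48.

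**Figure D3:**
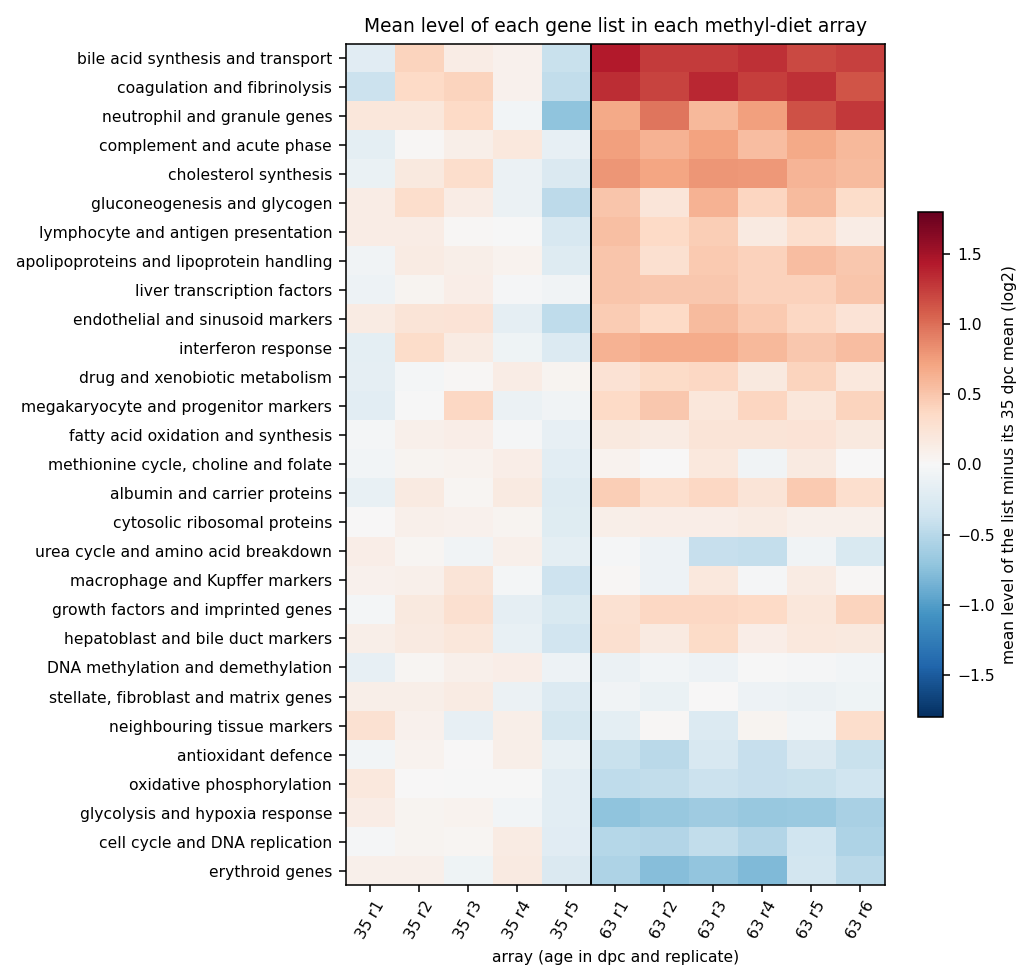
Mean level of each gene list (rows) in each of the 11 methyl-diet arrays (columns, age in dpc and replicate), as the log2 difference from the mean of the 5 arrays at 35 dpc. The 63 dpc columns are red for bile acid, coagulation and neutrophil genes and blue for erythroid, cell cycle, glycolysis and oxidative phosphorylation genes; at 35 dpc replicate 5 is the lowest column in most rows.

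Erythroid markers fell and neutrophil markers rose in the same arrays in which coagulation genes rose and cell cycle genes fell. The part of cell composition in these list changes was not tested. In high-gap arrays alone and in low-gap arrays alone, the medians were 1.15 and 0.96 for coagulation, -0.79 and -0.80 for erythroid genes, -0.74 and -0.69 for the cell cycle and -0.46 and -0.50 for oxidative phosphorylation.

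The genes of the methionine cycle, choline and folate did not move together. Of 24 tested, 8 rose and 7 fell (median 0.15), against 27.1% and 30.9% of all genes. BHMT, which passes a methyl group from betaine to homocysteine, read 8.499, 9.702, 8.92, 9.97 and 9.61 at 35 dpc and from 10.67 to 11.86 (median 11.26) at 63 dpc. The ages did not overlap, and BHMT rose by 1.92 ± 0.31 (SE, adjusted p = 1.18e-05), 3.79-fold. CHDH, which makes betaine from choline, rose by 1.05 ± 0.25 (SE, adjusted p = 0.0011). CTH, which splits cystathionine to give cysteine, rose by 0.67 ± 0.16 (SE, adjusted p = 0.000934).

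GNMT, which uses S-adenosylmethionine to methylate glycine, read 4.55, 4.13, 3.84, 4.78 and 4.46 at 35 dpc and from 2.79 to 3.65 (median 3.31) at 63 dpc. It fell by 1.12 ± 0.22 (SE, adjusted p = 0.000108), with no overlap. AHCY, which splits S-adenosylhomocysteine, fell by 0.42 ± 0.16 (SE, adjusted p = 0.0242), and its ages overlapped. MAT1A, the liver form of the enzyme that makes S-adenosylmethionine, read 12.11, 11.76, 12.06, 11.96 and 11.65 at 35 dpc and from 11.79 to 12.102 (median 11.97) at 63 dpc. The arrays of both ages overlapped and the change was 0.06 ± 0.11 (SE, adjusted p = 0.686). MAT2A, the form of dividing and fetal cells, rose by 0.38 ± 0.15 (SE, adjusted p = 0.0396) and its regulatory subunit MAT2B by 0.52 ± 0.18 (SE, adjusted p = 0.0188). PEMT, which methylates phosphatidylethanolamine, changed by 0.16 ± 0.11 (SE, adjusted p = 0.226) and was not called.

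On the folate side, GGH, which trims stored folate, rose by 1.02 ± 0.15 (SE, adjusted p = 3.35e-06), and MTHFD1 by 0.29 ± 0.11 (SE, adjusted p = 0.0315). AMT of the glycine cleavage system changed by -1.11 ± 0.15 (SE, adjusted p = 1.29e-06), the mitochondrial MTHFD2 by -1.03 ± 0.29 (SE, adjusted p = 0.00412) and ALDH1L1, which oxidises formyl folate, by -0.53 ± 0.17 (SE, adjusted p = 0.0111). SHMT1 changed by 0.14 ± 0.12 (SE, adjusted p = 0.345), with overlapping ages. The calls of MAT2A, MAT2B, MTHFD1 and AHCY depended on single arrays or settings: of 24 alternatives, the call of MAT2A held under 11, that of MAT2B under 18, that of MTHFD1 under 14 and that of AHCY under 20.

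Of 9 genes of DNA methylation and demethylation 1 rose and 2 fell (median -0.09). DNMT3B, which sets new methylation marks in early development, read 4.65, 5.298, 4.17, 5.52 and 4.41 at 35 dpc and from 2.86 to 3.91 (median 3.65) at 63 dpc. Its ages did not overlap, and it fell by 1.33 ± 0.33 (SE, adjusted p = 0.00134). DNMT1, which copies methylation at replication, read 10.57, 10.35, 10.71, 10.71 and 10.48 at 35 dpc and from 10.54 to 11.24 (median 10.88) at 63 dpc. DNMT1 changed by 0.32 ± 0.17 (SE, adjusted p = 0.108) and DNMT3A by 0.41 ± 0.25 (SE, adjusted p = 0.174). Neither was called by its brightest probe set, and the ages of both overlapped. The other 2 tested probe sets of DNMT1 changed by 0.32 and 1.04. ZBTB33, which binds methylated DNA, rose by 1.62 ± 0.36 (SE, adjusted p = 0.000503). GADD45G fell by 0.59 ± 0.22 (SE, adjusted p = 0.0264). That call held under 18 of 24 alternatives and was lost within each spike-in gap class. GADD45B, at -0.52 ± 0.25 (SE, adjusted p = 0.0833), was not called.

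**Figure D4:**
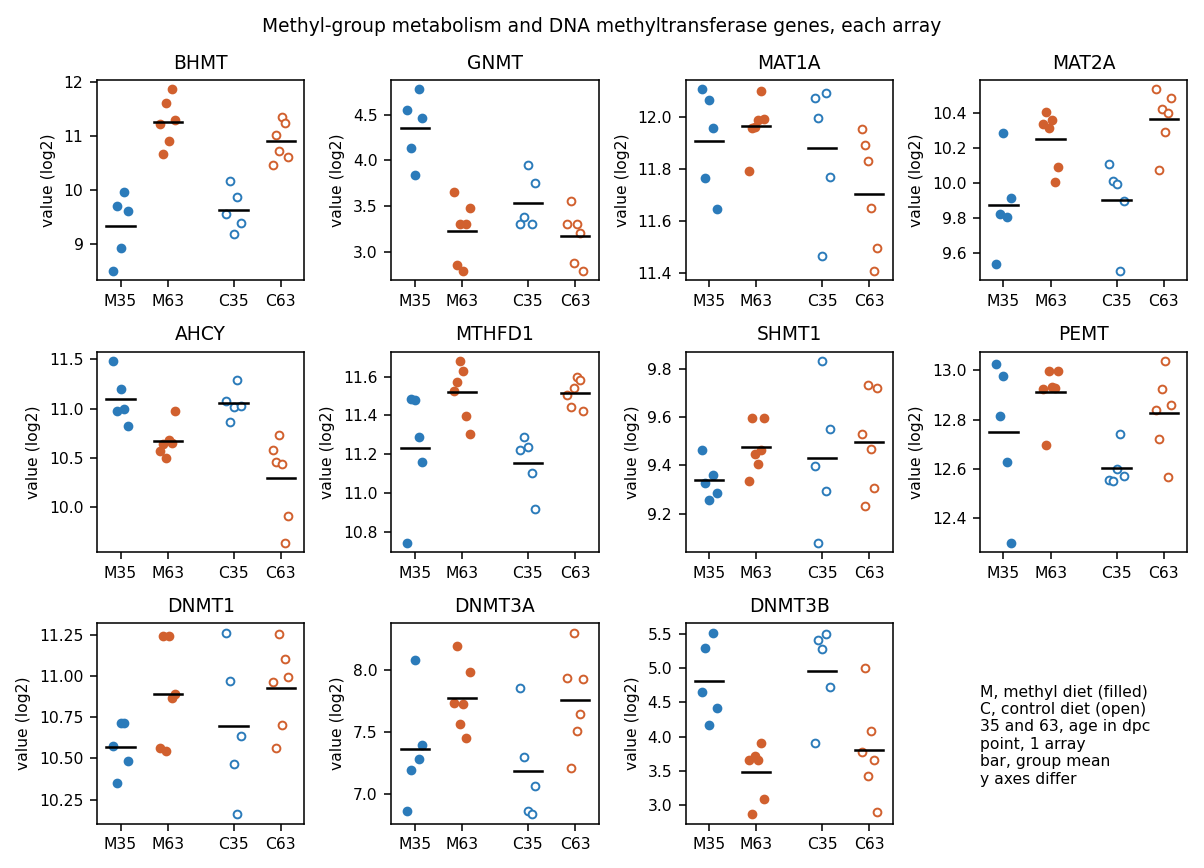
Deposited log2 value (y axis, which differs between panels) of 8 genes of methyl-group metabolism and 3 DNA methyltransferases in each array at 35 and 63 dpc, methyl diet filled and control diet open, with group means as bars. BHMT rises and DNMT3B falls under both diets; GNMT at 35 dpc lies at 3.84 to 4.78 under the methyl diet.

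Of 18 growth factor and imprinted genes 6 rose and 2 fell (median -0.06). IGF2, the fetal growth factor, read 14.81, 14.56, 14.86, 14.51 and 14.46 at 35 dpc and from 14.36 to 14.84 (median 14.55) at 63 dpc. The ages overlapped throughout and the change was -0.09 ± 0.102 (SE, adjusted p = 0.502). IGFBP1, a binding protein that hepatocytes secrete, rose by 1.16 ± 0.25 (SE, adjusted p = 0.000374), while a second, dimmer probe set of IGFBP1 changed by -0.49 and was not called. The imprinted PEG10 read 11.67, 12.74, 12.81, 11.81 and 11.43 at 35 dpc and from 13.54 to 14.16 (median 14.08) at 63 dpc and rose by 1.902 ± 0.22 (SE, adjusted p = 1.66e-07). PEG3 rose by 0.97, while GRB10, which dampens insulin signalling, and NNAT, neuronatin, changed by -0.85 and -1.29.

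Genes outside the lists with the smallest p included ABAT, which breaks down the transmitter GABA. It read 4.97, 4.25, 4.66, 4.59 and 4.52 at 35 dpc and from 2.43 to 2.63 (median 2.63) at 63 dpc, with all 6 arrays at 63 dpc near background, so ABAT was at least 3.59-fold lower (adjusted p = 1.09e-10). ARNTL, a core factor of the circadian clock, read 4.37, 4.61, 4.79, 4.61 and 4.78 at 35 dpc and from 6.03 to 6.76 (median 6.38) at 63 dpc. It rose by 1.77 ± 0.14 (SE, adjusted p = 6.59e-10). SAT1, which acetylates polyamines, rose by 1.27 ± 0.11 (SE, adjusted p = 3.42e-09), OPTN, optineurin of autophagy, by 2.11 ± 0.197 (SE, adjusted p = 7.54e-09), and PMM1, a phosphomannomutase, by 2.08 ± 0.19 (SE, adjusted p = 6.31e-09). PDCD2L fell by 1.397 ± 0.11 (SE, adjusted p = 6.39e-10), and its 63 dpc arrays lay at 2.90 to 2.97.

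The change under the methyl diet was set against the change under the control diet, which has its own 5 and 6 arrays. Under the control diet 6055 probe sets were called (39.5%), 3064 higher and 2991 lower. Of the methyl-diet calls, 69.1% were also called in the same direction under the control diet, and of the control calls 87.4% under the methyl diet. In all, 5295 probe sets were called in the same direction under both and 2 in opposite directions. The changes correlated at 0.919 across probe sets, which are not independent replicates. The median size of a change was 0.50 under the methyl and 0.41 under the control diet, and 64.1% of probe sets changed more under the methyl diet. This difference in size was not tested.

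**Figure D5:**
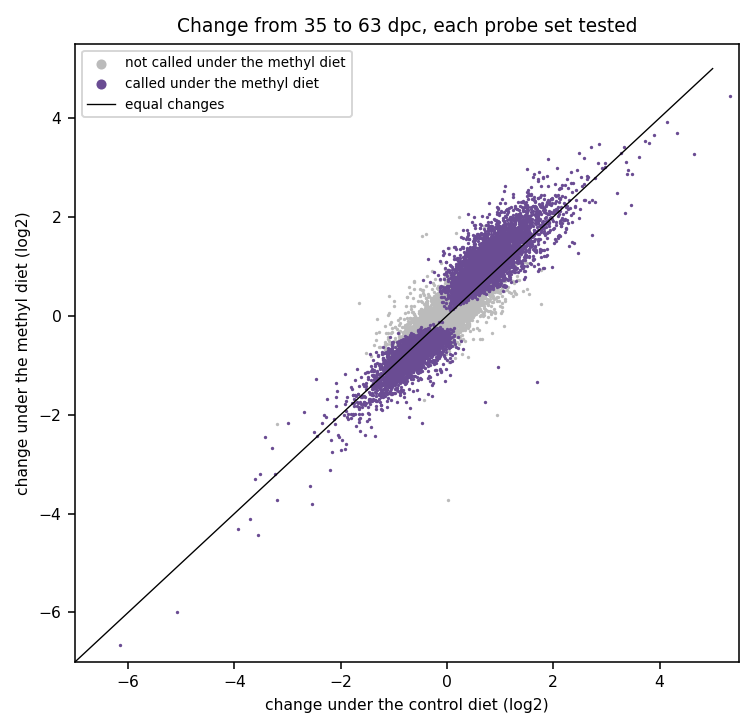
Change from 35 to 63 dpc of each probe set tested under the control diet (x axis, log2) and under the methyl diet (y axis, log2), with the line of equal changes; purple points were called under the methyl diet. Most points lie along the line (correlation 0.919 across 15327 probe sets), and 2 called under both diets have opposite directions.

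Tested directly, the difference between the 2 changes was called for 0 of 15327 probe sets (0%) by limma. At an unadjusted p under 0.05 there were 507 (3.31%), 328 with the change more positive under the methyl diet and 179 more negative. The smallest adjusted p was 0.195, for a probe set annotated to more than 1 gene. Its means were 6.48 ± 0.51 (SD, n = 5) and 5.44 ± 0.23 (SD, n = 6) under the methyl diet and 5.00 ± 0.47 and 5.96 ± 0.53 under the control diet, so the changes were -1.03 and 0.96 and differed by -1.99. A second probe set with the same annotation changed by -1.35 under the methyl and 1.70 under the control diet, a difference of -3.04 (unadjusted p = 0.000181, adjusted p = 0.535). With array weights 2 probe sets passed, without control-diet replicate 4 at 35 dpc 3 passed and without methyl-diet replicate 1 at 35 dpc 1 passed. The probe set with the smallest adjusted p was among them in each of these alternatives. It was not called without methyl-diet replicate 2 at 35 dpc, where XIRP1 alone passed. The median standard error of a difference of changes was 0.295.

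The named genes with the smallest p for this difference were the following, and none passed adjustment with all arrays. XIRP1 changed by -2.18 under the methyl diet and by -0.47 under the control diet, a difference of -1.71 (95% confidence interval -2.56 to -0.86, unadjusted p = 0.000284). Its control means were 3.77 ± 0.33 and 3.31 ± 0.35 (SD) at 35 and 63 dpc, and 4 of its 5 methyl arrays at 35 dpc stood above 5. Without replicate 2, the fifth of these, the difference was called (-2.17, adjusted p = 0.000167 by limma). CDHR4 changed by -0.85 and -0.04, a difference of -0.81 (95% confidence interval -1.23 to -0.39, unadjusted p = 0.000455). Its 63 dpc values under the methyl diet lay at 2.80 to 2.83. MICALL2 changed by -1.75 and -0.78, a difference of -0.98 (95% confidence interval -1.53 to -0.43, unadjusted p = 0.00108).

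BCKDHB, of branched-chain amino acid breakdown, changed by -0.101 under the methyl and -0.74 under the control diet, a difference of 0.64 (95% confidence interval 0.26 to 1.02, unadjusted p = 0.00174). ASNS, asparagine synthetase, changed by -0.23 and -0.72, and ADD3, adducin, by 2.05 and 0.39. KLRK1, an activating receptor of natural killer cells, changed by -1.27 and -2.46, with 5 of its 6 methyl-diet arrays at 63 dpc near background, and the hexokinase HK3 by 0.27 and -0.397. MKS1 and ZCWPW1 changed by -0.56 and -0.63 under the methyl diet and by 0.15 and 0.17 under the control diet. MKS1 was near background on all 6 methyl-diet arrays at 63 dpc, at least 1.34-fold lower than at 35 dpc.

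Under the control diet the list medians were 0.96 for coagulation, 1.13 for bile acid, 0.75 for neutrophil, -0.74 for erythroid, -0.63 for cell cycle, -0.59 for glycolysis and -0.53 for oxidative phosphorylation genes. Each has the sign of its methyl-diet median, and these lists were the ones with the highest and lowest methyl-diet medians. Lists with smaller medians could differ in sign. The medians under the methyl and control diets were 0.04 and -0.33 for urea cycle and amino acid genes. For growth factor and imprinted genes they were -0.06 and 0.03. For methionine, choline and folate genes the medians were 0.15 under the methyl and -0.08 under the control diet, beside -0.07 and -0.09 for all genes, and 3 of the 24 had an unadjusted p under 0.05 for the difference.

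Among the lists, the urea cycle and amino acid genes held 5 of 12 with an unadjusted p under 0.05 for the difference, beside 188 of all 5594 genes, and a median difference of 0.39 beside 0.05. This list is named because it held the most such genes of the 29 lists, which were chosen with earlier results known. None of these differences passed adjustment, and no test of the list was run. TAT rose by 1.47 under the methyl and by 0.65 under the control diet, a difference of 0.82 (95% confidence interval 0.203 to 1.45, unadjusted p = 0.011). ARG1 gave 0.41 (95% confidence interval 0.09 to 0.73, unadjusted p = 0.0135). GNMT, with control means of 3.54 ± 0.29 and 3.17 ± 0.29 (SD), gave -0.76 (95% confidence interval -1.38 to -0.13, unadjusted p = 0.0192). For BHMT the difference was 0.66 (95% confidence interval -0.23 to 1.54, unadjusted p = 0.14) and for DNMT3B -0.17 (95% confidence interval -1.13 to 0.78, unadjusted p = 0.712). IGFBP2 gave -1.38 (95% confidence interval -2.88 to 0.12, unadjusted p = 0.0698); its control values at 35 dpc were 6.30 ± 0.39 (SD, n = 5), beside the SD of 2.19 under the methyl diet.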

How the data were processed

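Liver RNA was extracted with TRI Reagent, DNase and RNeasy columns and labelled from 0.5 ug, per the labels' protocols. The submitters' processing notes name GCOS 1.1.1, with no role given. The deposited log2 values (2.2 to 16.56) were used as the authors deposited them. Their normalization is not given in the sources used here. Control probe sets (124) were set aside. Probe sets above an array's 40th percentile in at least 5 of 32 arrays were kept. limma 3.58.1 (R 4.3.3) fitted 6 group means over all 32 arrays, leaving 26 residual degrees of freedom, with eBayes letting the prior variance follow the mean level. Its p-values were adjusted by Benjamini-Hochberg over 15327 probe sets, with a threshold of 0.05. Every adjusted p in the text is limma's, two-sided. The steps were tested on simulated data. Differences are log2, 63 minus 35 dpc.

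Members and the 29 gene lists were chosen with earlier results of these data known. Named genes are the 15 largest called rises and falls, up to 4 members a list by smallest p, 10 genes outside the lists and 10 by the diet difference, plus methyl-cycle genes of a set list; CHDH, CTH, MAT2B, MTHFD2, ALDH1L1, KNG1, F9, FGB, FGG, KLF1, ALAS2, TOP2A, MCM5, NDUFA5, NDUFS1, TIMP1, PEG3, GRB10, GAPDH, LDHA, VEGFA, SOD2 and GPX1 were chosen after their values were seen. Other filters, scalings, covariates and left-out arrays were tried as alternatives. The number of arrays limits the precision.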

Additional observations from a re-analysis of the deposited data

Results flagged for a closer look

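In 22 of 372 gene and age groups the highest or lowest array was far from the nearest other array of its group relative to the group's range. Groups with a range under 0.2 were counted among the 372 but not tested. The limits used would flag about 1 in 20 groups of independent, normally distributed values. Tied values and genes picked by their p need not follow that rate, so the count is not compared with chance. At 35 dpc, replicate 1 was the outlying high array for ACADVL (10.005, nearest 9.688), CSRP2 (7.962, nearest 7.353), PFKL (8.735, nearest 7.643), PPOX (12.254, nearest 11.569) and TIMP1 (8.56, nearest 7.391), and the outlying low array for NDUFS1 (7.604, nearest 8.151). Replicate 3 was high for PMM1 (4.82, nearest 3.975), replicate 4 low for CKM (4.718, nearest 5.117) and replicate 5 low for SLA-DQA1 (2.681, nearest 3.4).

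At 63 dpc, replicate 2 was high for ACSL1 (12.931, nearest 12.647) and ANXA4 (10.288, nearest 9.805), and low for KIT (5.274, nearest 5.738) and PEMT (12.697, nearest 12.925). Replicate 4 was high for GPC3 (9.485, nearest 9.081) and low for TIMP1 (5.138, nearest 6.277). Replicate 6 was low for KLKB1 (8.93, nearest 9.239) and PALMD (6.95, nearest 7.745), and high for KLRK1 (3.333, nearest 2.736) and GAPDH (14.36, nearest 14.065). Replicate 5 was low for PEG10 (13.54, nearest 14.007) and SQLE (8.743, nearest 9.164), and replicate 3 low for TOP2A (8.855, nearest 9.655).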

How the results depend on the processing

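The count of probe sets called in the methyl-diet change was 6701 to 7533 (3787 to 4213 higher, 2914 to 3466 lower) when 1 array was left out, 6467 in high-gap arrays alone and 7926 after quantile normalization. It was 1833 (961 higher, 872 lower) in low-gap arrays alone, which are fewer, 3203 (2395 and 808) at 2-fold or more, and 3341 (1558 and 1783) with 1 probe set a gene tested. The diet difference had 2 calls with array weights and 0 to 3 when 1 array was left out: 3 without replicate 4 of the control diet at 35 dpc, and 1 each without methyl-diet replicate 1 and replicate 2 at 35 dpc, XIRP1 being called without the latter (adjusted p = 0.000167 by limma).

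Quantile normalization gave list medians of -0.52 for antioxidant, -0.82 for cell cycle, -0.33 for stellate and -0.48 for neighbouring tissue genes, and array weights gave -0.80 for the cell cycle. The 60th percentile filter, which tests fewer genes, gave 0.93 for complement, 0.44 for drug metabolism, 0.25 for fatty acid, -0.25 for hepatoblast, 0.55 for interferon and -0.28 for stellate genes. Liver transcription factors had 0.39 in low-gap arrays alone and neighbouring tissue genes 0.18 in high-gap arrays alone. With 1 array left out, medians ran from 0.10 to 0.72 for gluconeogenesis, 0.27 to 0.37 for liver transcription factors and 0.26 to 0.55 for lymphocyte genes. MAT1A ran from -0.008 (without methyl-diet replicate 5 at 35 dpc) to 0.11. Of 186 named genes, 56 lost their call in low-gap arrays alone, 14 in high-gap arrays alone and 8 after quantile normalization. Where no cause is stated, the cause was not tested. No paired analysis was possible because replicate numbers only follow accession order.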

Other observations

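At 63 dpc under the methyl diet, 3 or more of the 6 arrays held the identical value, to 4 decimals, in 46.2% of the probe sets whose mean was under 4, in 9.07% of those between 4 and 8 and in 22 of the 3873 over 8. The spread of low-level genes at that age, and that of KLKB1 and GPC3, therefore rests on fewer distinct values than arrays. Low values repeated between arrays also occur at 63 dpc in NANOS1, FGF12, EPO and DNMT3B. The sizes of these falls are therefore uncertain, and the part of repeated values in them was not tested. The spread between 35 dpc arrays was close to that under the control diet (median SD 0.31 and 0.343), and it was the larger under the methyl diet in 44.9% of probe sets, although the SD of IGFBP2 was 2.19 against 0.39. Of 1520 genes with more than 1 probe set tested, 31 had probe sets called in opposite directions.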
